A study of Mus musculus with 6 samples.

Results

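The regions described here are p53 ChIP-seq peaks that were listed only in B cells of irradiated mice. They were chosen by the deposited peak lists alone: a peak of the irradiated B cell list was kept when its deposited value was at least 8 and when it shared no base with a peak of the other 4 lists. The rule kept 5623 peaks, which is 24.0% of the 23405 irradiated B cell peaks of that value and 22.9% of the 24507 in the whole list. They are called B-only peaks below. The 17743 irradiated B cell peaks of the same minimum value that did overlap an irradiated non-B cell peak are called shared peaks. The same rule applied from the other side gave 2669 non-B-only peaks of 20430 irradiated non-B cell peaks, or 13.1%.

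The lists came from spleens of C57/Bl6 mice. Trp53+/+ animals, 8 weeks old, were left without treatment (mock) or were taken 4 h after whole-body irradiation with 7 Gy (IR). Their spleen cells were divided with beads against B220, a surface marker of B cells, into B cells and the column flow-through, called non-B cells, which holds T cells and every other cell the beads did not retain. The remaining list came from total spleen of irradiated Trp53-/- mice, whose age the labels do not give. Chromatin was pooled over animals, and each group had 1 library, so no difference below could be set against a spread between replicates. The 95% intervals cover counting error over peaks only. Read depth is unknown, and a site that was missing from the non-B cell list may have been bound there without being called.

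p53 accumulates in cells with damaged DNA and activates transcription from a response element made of a pair of half-sites, each with a central core of C and G. At genes such as Cdkn1a and Mdm2 this element serves cell cycle arrest, apoptosis and feedback in many cell types. B cells carry a transcription programme of their own, built on factors such as EBF1, PAX5, PU.1 and the octamer factors, which keeps regulatory regions of B cell genes accessible.

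The sequences of the response elements show what the strongest matches in B-only peaks look like. An unsplit element was searched as 2 adjoining half-sites of 10 bases, with C at base 4 and G at base 7 required and at most 3 mismatches in all, within 300 bp of the peak midpoint. The first 5 lines below are the highest-valued B-only peaks whose element had 0 mismatches. The next is the only element among the 10 highest-valued B-only peaks, in Sp110, with 2 mismatches. The last 3 are in genes of the B lineage, Ms4a1 with 2 mismatches, Sykb with 1, in a peak of value 19.47, and Lyn with 3. All are read 5′ to 3′ on the plus strand of mm9 (NCBIM37), with 5 flanking bases on either side, and the capitals mark the required C and G of each half-site. A match is a description of the letters, not a bound site.
between genes upstream of Stc1, chr14:69559390-69559419: tctctgagCaaGcttgagCaaGttcacttc
between genes, nearest start 3110043O21Rik, chr4:35223463-35223492: gaactgggCaaGtccaggCaaGctcaggta
intron of Bmper, chr9:23213121-23213150: agcctgggCaaGttcaggCatGcttgtgaa
intron of Pde3a, chr6:141388688-141388717: aggaggaaCaaGcccaggCaaGcttgttct
between genes, nearest start Tas2r131, chr6:132912318-132912347: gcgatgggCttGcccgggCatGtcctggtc
intron of Sp110, chr1:87477643-87477672: gaaggtggCatGtccaggCatGacccgtgg
intron of Ms4a1, chr19:11339302-11339331: tcagcagtCatGcttggaCacGtctcctgt
intron of Sykb, chr13:52732442-52732471: cttttaagCaaGcctcaaCatGtttcgaaa
intron of Lyn, chr4:3657532-3657561: aaatgaggCctGtccaggCagGcaccgagg

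Whole peaks of at most 300 bases were also read, to show how sparse such matches can be in peaks of high value. The next 3 lines are the highest-valued B-only peaks of that length, with values of 39.11, 37.61 and 37.2, on the plus strand of mm9. Capitals mark half-sites with at most 1 mismatch.
intron of Lrrc48, chr11:60179822-60180115: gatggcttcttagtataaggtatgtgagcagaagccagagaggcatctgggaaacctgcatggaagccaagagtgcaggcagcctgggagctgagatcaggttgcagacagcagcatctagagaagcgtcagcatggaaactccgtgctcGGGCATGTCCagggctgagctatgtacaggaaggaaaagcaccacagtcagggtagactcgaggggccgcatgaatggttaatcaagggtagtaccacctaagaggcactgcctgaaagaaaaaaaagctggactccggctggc
intron of Gpnmb, chr6:49012970-49013199: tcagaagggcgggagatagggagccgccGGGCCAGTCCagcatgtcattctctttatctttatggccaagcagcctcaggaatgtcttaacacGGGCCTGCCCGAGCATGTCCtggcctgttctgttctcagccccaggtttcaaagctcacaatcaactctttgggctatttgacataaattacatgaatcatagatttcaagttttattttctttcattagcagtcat
between genes, chr2:65229415-65229689: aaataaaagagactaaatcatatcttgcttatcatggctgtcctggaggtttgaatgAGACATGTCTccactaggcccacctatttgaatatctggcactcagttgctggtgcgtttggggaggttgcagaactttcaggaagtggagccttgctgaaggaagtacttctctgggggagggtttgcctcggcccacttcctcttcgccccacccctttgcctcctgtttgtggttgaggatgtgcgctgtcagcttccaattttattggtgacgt

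The Lrrc48 and the intergenic peak each held a single half-site without mismatches and no adjoining partner with at most 1 mismatch. The best unsplit match had 4 mismatches at the Lrrc48 peak, over the limit of 3, and 3 at the intergenic peak, which was therefore counted as holding an element. The Gpnmb peak held 3 half-sites, of which 2 adjoined and formed an unsplit element with 1 mismatch.

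The deposited values, read here from their range and steps as −log10 of the authors' peak p-value, were part of the rule and are given as description. B-only peaks had a median value of 12.09, with quartiles of 10.16 and 15.45 and a highest value of 55.65, whereas shared peaks had a median of 25.52. Their median width was 236 bp against 404 bp. No B-only peak was in the top 10% of the irradiated B cell list, which starts at 61.01, and 58 had a value of at least 30. The share of irradiated B cell peaks that were B-only was 64.8% at values of 8 to 10, 49.3% at 10 to 15, 28.2% at 15 to 20, 10.1% at 20 to 30 and 0.792% at 30 and over. Non-B-only peaks had nearly the same values, with a median of 12.13. At the limit of the rule, the lowest B-only values were 8 and 8.01, and the highest value just outside was 7.99. A further 39 peaks of value 8 or more lacked an irradiated non-B cell peak and were left out because they overlapped a B cells mock peak. None of these overlapped a Trp53-/- peak.

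**Figure D1:**
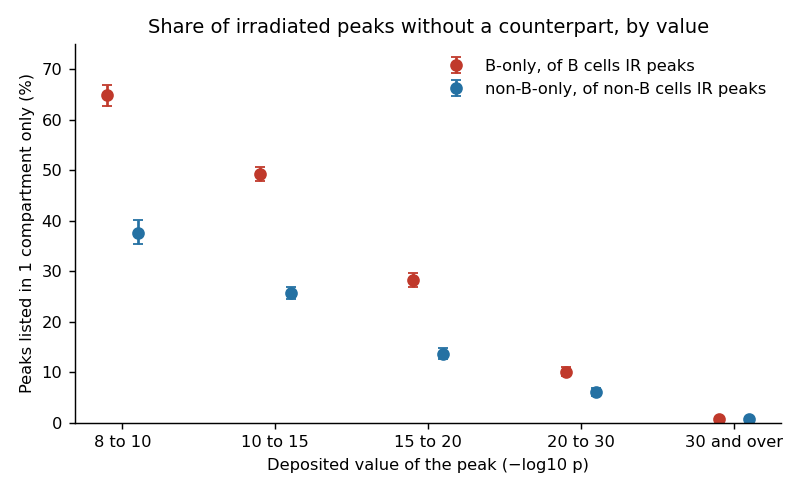
Share of irradiated peaks listed in 1 compartment only, in percent, against the deposited value of the peak. Red points are B-only peaks as a share of B cells IR peaks, blue points non-B-only peaks as a share of non-B cells IR peaks, and bars are 95% Wilson intervals. The red points run from 64.8% at values of 8 to 10 to 0.792% at 30 and over.

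B-only peaks often lay near other peaks. The distance to the nearest irradiated non-B cell peak had a median of 7314 bp, and 646 B-only peaks (11.5%) lay within 500 bp of one. The nearest shared peak of the B cell list was at a median of 8998 bp. The central 31 bases occurred once in the reference in 97.2% of B-only peaks.

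The 10 highest-valued B-only peaks were mostly intronic, with 9 of 10 in an intron, 1 at a transcription start site and 1 with an unsplit element. Over all B-only peaks, 48.0% lay in introns. The highest, with a value of 55.65, lay in an intron of Bcor, which encodes a corepressor partner of BCL6, at chrX:11700760-11701066 and 4563 bp downstream of the nearest start. The second, 44.37, lay in an intron of Slit1, a guidance ligand, at chr19:41690365-41690724. The third, 41.07, was the Sp110 peak whose element is printed above, at chr1:87477488-87477820. Sp110 encodes a nuclear body protein induced by interferon. The others named by value lay in introns of Arhgef3 (40.83), Sash1 (40.44), Ahnak (39.47), Maml3 (39.11), Trak1 (39.11) and Lrrc48 (39.11). Maml3, a coactivator of Notch signalling, held the highest-valued B-only peak at a start site. The next at start sites were Arap1 (35.2), Sik3 (34.61), Lax1 (34.61) and 4933403G14Rik (32.67). Lax1 encodes an adaptor that restrains antigen receptor signalling in lymphocytes, and its peak lay upstream, at -4998 bp from the start.

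B-only peaks were less often at transcription start sites than shared peaks. A peak was placed at a start when its midpoint lay between 5 kb upstream and 2 kb downstream of any annotated transcript start. This held for 2069 of 5623 B-only peaks, or 36.8% (35.5 to 38.1%), and for 51.0% of shared peaks, a difference of -14.2 points (-15.7 to -12.7). The share was lower in B-only peaks on 20 of 20 chromosomes. Within 500 bp of a start the shares were 16.7% and 36.1%. Non-B-only peaks had 39.2% at start sites, a difference of -2.40 points (-4.64 to -0.164). That difference varied with value, from 4.78 points (-0.0260 to 9.49) at 8 to 10 to -8.25 points (-13.3 to -3.23) at 15 to 20.

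The start site share of B-only peaks went down as the value went up. It was 44.6% (41.8 to 47.4%) at values of 8 to 10, 37.9% at 10 to 15, 30.8% at 15 to 20, 25.9% at 20 to 30 and 22.4% (13.6 to 34.7%) at 30 and over. Shared peaks stayed between 56.3% and 59.1% up to a value of 30 and had 41.4% at 30 and over. Non-B-only peaks had 39.8%, 40.6%, 39.0%, 32.5% and 29.2% in the same order, so lower shares at high values were not limited to B-only peaks. When shared peaks were weighted to the values of the B-only peaks, their share was 58.3%, and the difference was -21.5 points. Away from start sites, 51.2% of B-only peaks lay in introns and 45.6% between genes, and 46.4% and 50.7% of shared peaks.

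An unsplit p53 element was found in 631 of 5623 B-only peaks, or 11.2% (10.4 to 12.1%), and in 3.54% of background windows placed 10 kb away. Of these, 16 had 0 mismatches and 94 had 1. In moved windows 1 had 0 mismatches and 9 had 1. Shared peaks held an element in 17.1% and non-B-only peaks in 7.01%. B-only peaks thus differed from shared peaks by -5.89 points (-6.87 to -4.88) and from non-B-only peaks by 4.22 points (2.91 to 5.46).

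The difference from shared peaks depended on the value of the peaks compared. At values of 10 to 15 the share was 11.4% in B-only and 9.66% in shared peaks, a difference of 1.76 points (0.136 to 3.38), and at 20 to 30 it was 14.6% and 11.5%, a difference of 3.17 points (0.0974 to 6.78). At 8 to 10 and at 15 to 20 the intervals of the difference held 0. At 30 and over it was 20.7% in B-only and 26.8% in shared peaks, with an interval from -14.6 to 6.03 points. Weighted to the values of B-only peaks, shared peaks had 9.51%, which reversed the sign of the difference to 1.71 points. The weighted difference had opposite signs by position, as given further on for peaks away from and at start sites. The difference from non-B-only peaks lay above 0 at values of 8 to 10 (3.58 points, 1.14 to 5.78), 10 to 15 (3.54, 1.56 to 5.38), 15 to 20 (4.77, 1.603 to 7.59) and 20 to 30 (6.52, 1.499 to 10.99).

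**Figure D2:**
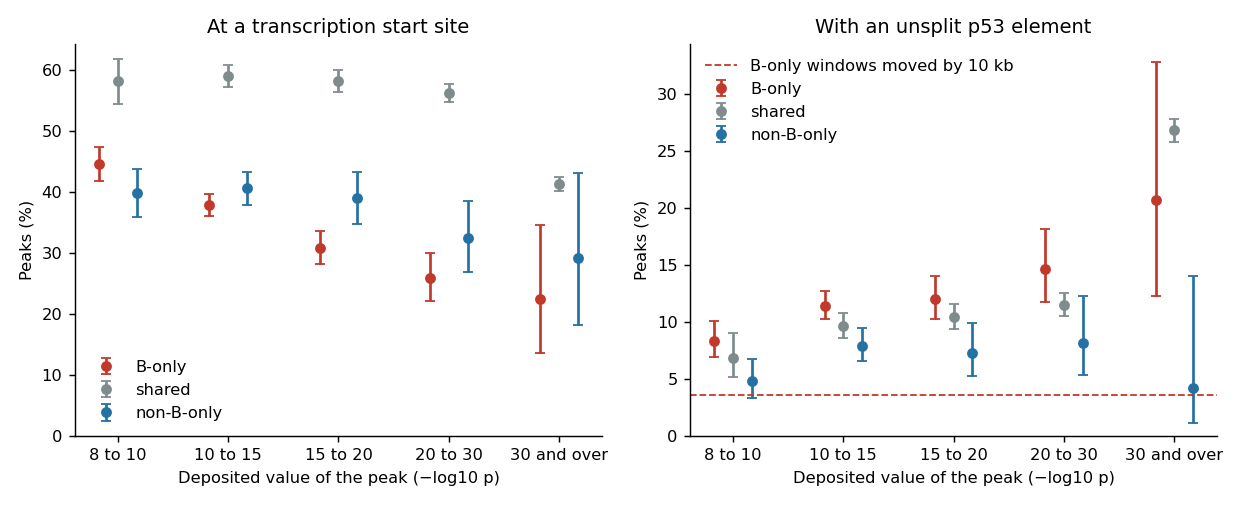
Share of peaks at a transcription start site (left) and with an unsplit p53 element (right), in percent, by deposited value. Red is B-only, grey shared and blue non-B-only, bars are 95% Wilson intervals, and the dashed line is the element share of B-only windows moved by 10 kb, 3.54%. On the left the red points run from 44.6% down to 22.4%, and the grey points lie above them in every bin.

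Away from start sites the element share was 13.5% in B-only, 26.8% in shared and 8.01% in non-B-only peaks. Much of the difference from shared peaks went with the value, since shared peaks weighted to the B-only values had 17.3%, a difference of -3.81 points. By value, the difference from shared peaks was 0.140 points (-4.68 to 4.33) at 8 to 10, -4.39 points (-7.20 to -1.65) at 10 to 15 and -5.56 points (-8.73 to -2.26) at 15 to 20. At 20 to 30 it was -4.02 points (-7.92 to 0.5003), with an interval that held 0. At start sites the share was 7.25% in B-only and 7.78% in shared peaks, a difference of -0.533 points (-1.72 to 0.780), but weighted shared peaks had 3.94%, a difference of 3.31 points. There it was 3.78 points (1.997 to 5.74) at values of 10 to 15, 5.25 points (2.32 to 8.95) at 15 to 20 and 7.05 points (2.25 to 14.1) at 20 to 30. At 8 to 10 and at 30 and over the intervals of both differences, away from and at start sites, held 0. B-only peaks with an element lay in more remote places. The element share was 6.45% (5.09 to 8.14%) within 1 kb of a shared peak, 8.88% at 1 to 10 kb, 11% at 10 to 50 kb and 20.5% (18.1 to 23.0%) beyond 50 kb, while the start site share was 54.0%, 34.4%, 34.2% and 28.7%. The 110 B-only peaks with 0 or 1 mismatch were at a median of 27364 bp from the nearest start and 55181 bp from the nearest shared peak. The 4992 without an element were at 6562 bp and 8082 bp. Beside this, the central 31 bases occurred once in the reference in 79.1% of the 110, 96.0% of the 521 with 2 or 3 mismatches and 97.8% of those without, and the part of repeated sequence in this was not tested.

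Of the 5 highest-valued peaks with 0 mismatches, printed above, all but 1 lay away from start sites. The peak upstream of Stc1, a secreted glycoprotein hormone, had a value of 24.58 and lay at -87894 bp from that start. The peak in Bmper, a secreted regulator of BMP signalling, had a value of 19.47 and lay 526507 bp from the nearest shared peak. The peak in Pde3a, a phosphodiesterase, had a value of 18.36 and lay 620343 bp from one. The other two had values of 20.6 and 17.27, their central 31 bases occurred 9 and 2 times in the reference, and the element of the second lay just outside the listed peak, as did that of Lyn. The second was the 1 at a start, of the taste receptor gene Tas2r131.

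Motifs of other factors were counted in the same 600-base windows, on both strands, away from start sites. The PU.1 motif GAGGAAGT, of a factor shared by B and myeloid cells, was present in 14.4% (13.3 to 15.6%) of B-only peaks, 14.2% of shared and 8.07% of non-B-only peaks, and in 4.42% of moved B-only windows. The EBF1 motif CCCNNGGGA, of a factor that specifies B cells, was present in 10.9%, 10.1% and 5.98%, and in 8.03% of moved windows. The octamer ATTTGCAT, read by OCT1 and OCT2, was present in 6.22%, 5.78% and 3.08%, and in 3.91% of moved windows. B-only peaks therefore exceeded non-B-only peaks by 6.36 points (4.55 to 8.08) for PU.1, 4.88 points (3.29 to 6.38) for EBF1 and 3.14 points (1.92 to 4.26) for the octamer. The intervals of their differences from shared peaks held 0 for all 3 motifs.

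The RUNX motif and the TCF1 and LEF1 motif were instead less frequent in B-only than in non-B-only peaks. The RUNX motif TGTGGTTT was present in 6.84% of B-only, 9.37% of shared and 15.2% of non-B-only peaks, with 4.59% in moved B-only windows. The TCF1 and LEF1 motif CTTTGAT was present in 8.95%, 8.69% and 13.7%, and in 10.3% of moved B-only windows. B-only peaks were below non-B-only peaks by -8.32 points (-10.3 to -6.44) for RUNX and -4.79 points (-6.77 to -2.92) for TCF1 and LEF1. For the E-box CAGGTG, the GATA motif AGATAAG and the interferon factor motif GAAANNGAA the interval of that difference held 0.

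At start sites some motifs were scarcer in B-only than in shared peaks, and others were more frequent. The ETS motif CCGGAAG was present in 11.2% of B-only, 24.3% of shared and 16.8% of non-B-only peaks at start sites, a difference from shared peaks of -13.0 points (-14.6 to -11.4). The NRF1 motif GCGCATGCG was present in 0.870%, 4.68% and 3.35%. The NF-Y motif CCAATCA was present in 7.59% of B-only and 13.0% of shared peaks at starts. The motifs GGGGCGGGG and TGACGTCA were also less frequent in B-only peaks there. The E-box CAGGTG was instead more frequent, by 3.07 points (0.771 to 5.40), and so was the AP-1 motif TGANTCA, by 2.46 points (0.862 to 4.17). The GATA motif and the TCF1 and LEF1 motif were more frequent too, by 1.24 points (0.203 to 2.41) and 1.20 points (0.0769 to 2.44). The windows also differed in base composition, with a median GC content at starts of 51.8% in B-only and 56.8% in shared peaks and a median of 14 and 34 CpG, and the part of composition in these shares was not tested. Away from starts GC was 46.2% in B-only and 46.5% in shared peaks, and 45.8% in non-B-only peaks.

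Inside the B-only peaks away from starts, motifs also went with the presence of a p53 element. PU.1 was found in 6.65% (4.75 to 9.24%) of the 481 peaks with an unsplit element and 15.7% (14.4 to 16.98%) of the 3073 without. NF-Y was found in 16.2% (13.2 to 19.8%) and 5.66% (4.90 to 6.54%). For the octamer the shares were 5.41% and 6.35%, and for RUNX 6.65% and 6.87%, with overlapping intervals.

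**Figure D3:**
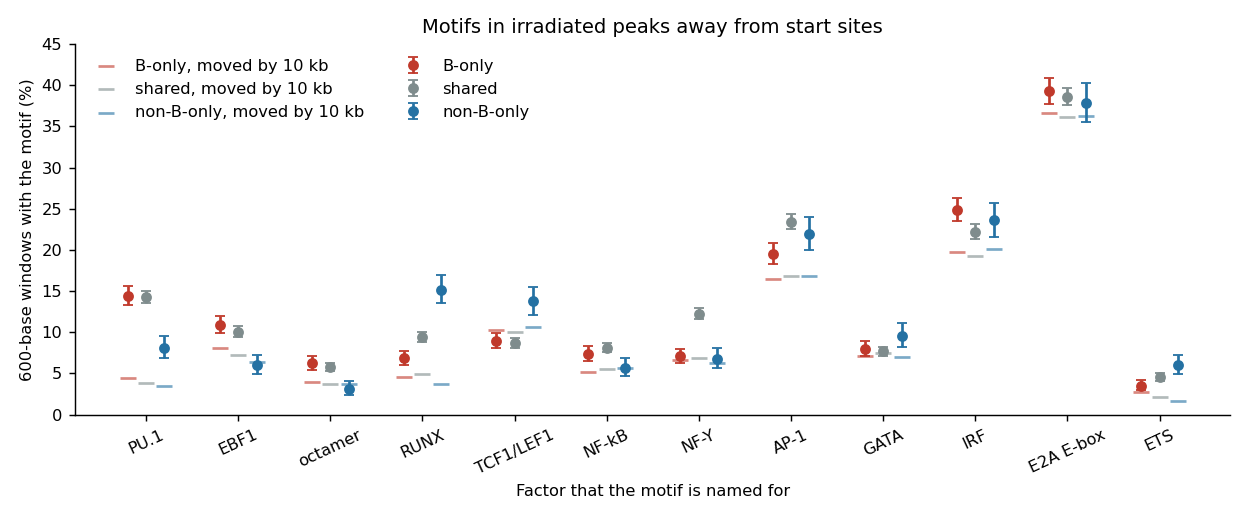
Share of 600-base windows away from start sites that hold each motif, in percent. Points are B-only (red), shared (grey) and non-B-only (blue) peaks with 95% Wilson intervals, and dashes are the same windows moved by 10 kb. Red lies above blue for PU.1, EBF1 and the octamer (14.4% against 8.07% for PU.1) and below blue for RUNX and TCF1/LEF1 (6.84% against 15.2% for RUNX).

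Genes were then read by lists. A peak was given to a gene when its midpoint lay between 5 kb upstream of the gene and its end, and 2916 of 22380 protein-coding genes, 13.0%, had a B-only peak. The background was 7.13% for non-B-only and 39.4% for shared peaks. Of the 2916 genes, 934 (32.0%) had no shared peak, and 498 (17.1%) also had a non-B-only peak. Over all windows there were 3.65 B-only and 1.83 non-B-only peaks per Mb.

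Genes of B lineage identity and receptor signalling had B-only peaks in 30 of 46, or 65.2% (50.8 to 77.3%), beside the 13.0% over all genes. They held 95 B-only peaks, or 25.8 per Mb. Non-B-only peaks were found in 4 of the 46, or 8.70%, which is near their background. Shared peaks were found in 42, so most of these genes were listed in both compartments and carried B-only peaks in addition. An unsplit element was found in 6 of the 95 B-only peaks, or 6.32% (2.93 to 13.1%), and 44.2% lay at start sites.

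The highest-valued of these lay in Ms4a1, which encodes the surface marker CD20, at chr19:11339141-11339768, with a value of 30.03 and an element with 2 mismatches. Fcrl1, an Fc receptor-like protein of B cells, had a peak of 28.06 at 143 bp from a shared peak. Sykb, the mm9 name of the kinase Syk that starts signalling from the B cell receptor, had a peak of 27.43 in an intron, 11361 bp from a shared peak. Vav2, an exchange factor downstream of the receptor, had one of 26.75. Prkcb, the protein kinase C that links the receptor to NF-kB, had one of 24.84. The kinases Lyn and Blk had peaks of 21.74 and 19.39, and the adaptor Pik3ap1 one of 19.1. Cd79a, a signalling chain of the receptor itself, had a B-only peak of 19.47 upstream of its start, at -1001 bp, and 552 bp from a shared peak. The tetraspanin Cd37, the factor Ebf1 and the chemokine receptor Cxcr5 had peaks of 21.34, 19.1 and 18.01. Of these 12 peaks, 9 were intronic, 5 were at start sites, 4 lay within 1 kb of a shared peak and 2 had an unsplit element. The 12 were picked through windows that span gene bodies, and 48.0% of all B-only peaks were intronic.

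Some B lineage genes held many B-only peaks. Ebf1 held 8 among 21 irradiated B cell peaks, and their values ran from 8.33 to 19.1, while its shared peaks reached 105.12. Vav2 held 8 among 16 and Pik3ap1 7 among 15. Cd24a, the heat stable antigen of immature B cells, held 6, with values of 8.09, 13.08, 8.33, 16.19, 14.1 and 8.72 in order along the gene, and neither a shared nor a non-B-only peak. All 6 lay within 2 kb of its start. Ly6d, a surface marker of early B cells, was the other gene of the list with B-only and no shared peaks, with 3 peaks of up to 9.46. Cd79b, the other signalling chain of the receptor, had 2 shared peaks and no B-only peak.

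**Figure D4:**
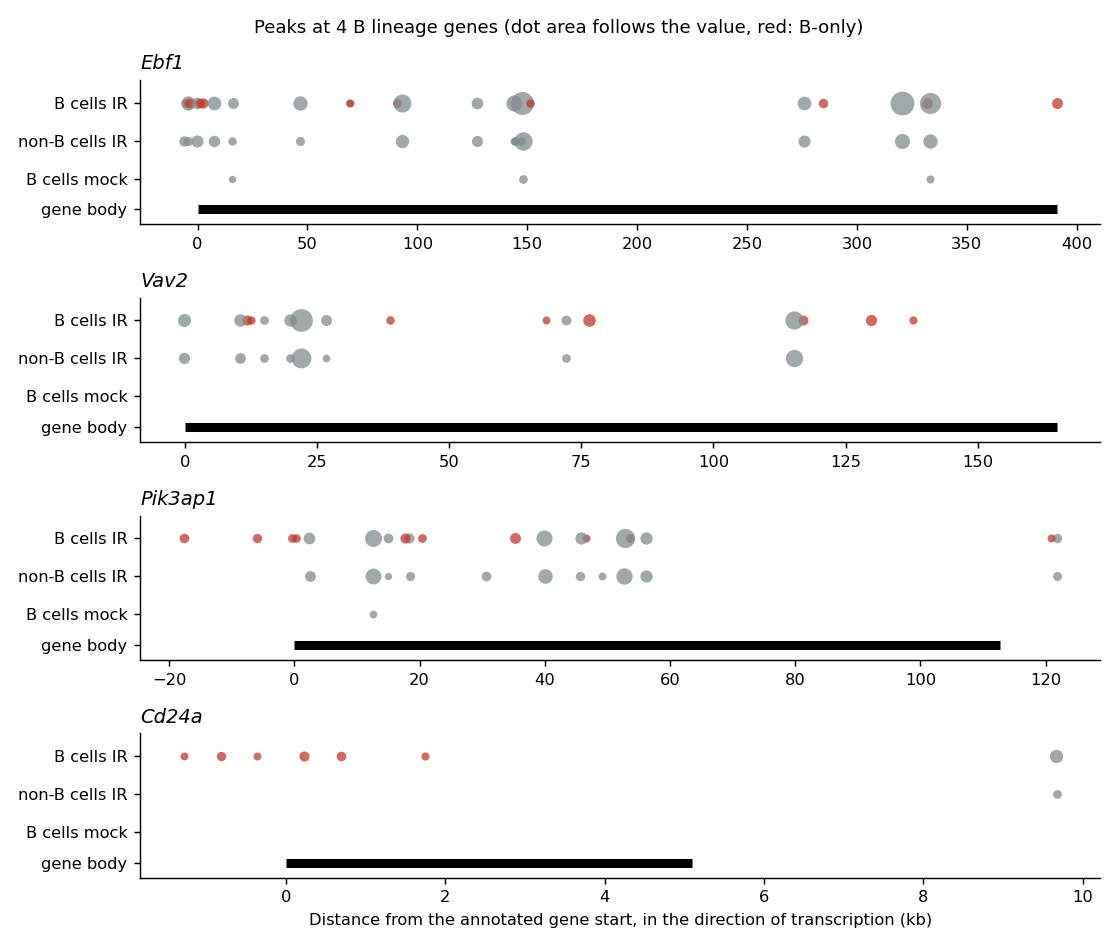
Peaks at Ebf1, Vav2, Pik3ap1 and Cd24a, the B lineage genes with most B-only peaks, by distance from the annotated gene start in kb. Red dots are B-only peaks, grey dots all other peaks of each list within 20 kb of the gene, dot area follows the deposited value, and the black bar is the gene. Red dots are spread among larger grey dots in Ebf1, where 8 of 21 B cells IR peaks inside the gene window were B-only, and stand alone around the Cd24a start.

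Regulators of germinal centre and plasma cells had B-only peaks in 15 of 30 genes, or 50% (33.2 to 66.8%), beside 13.0% over all genes. Non-B-only peaks were found in 8, or 26.7% (14.2 to 44.4%), beside 7.13%, and shared peaks in 23, or 76.7% (59.1 to 88.2%), beside 39.4%. All these shares lay above their backgrounds. Foxo1, a factor of the PI3K pathway, had the highest, at 23.51. Id3, an inhibitor of E proteins, had one of 20.6 at its start and no shared peak, but an irradiated non-B cell peak lay 750 bp away. Sfpi1, which encodes PU.1, had one of 19.47 at -112 bp from its start. Pax5 and Bach2, which keep B cells from becoming plasma cells and stand on both lists, held 5 and 4 B-only peaks. Bach2 also held 5 non-B-only peaks, and Pax5 none.

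MHC class II genes had B-only peaks in 4 of 15, or 26.7% (10.9 to 52.0%), an interval that holds the 13.0% over all genes. Non-B-only peaks were found in none (0 to 20.4%), an interval that holds their 7.13%. Shared peaks were found in 14 of the 15, beside 39.4% over all genes. The B-only peaks were at H2-Eb2 (25.66), Ciita (20.63), H2-Aa (15.18) and H2-Ob (9.02). Ciita, the coactivator that drives this gene family, held 3.

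Genes of Toll-like receptor, NF-kB and interferon signalling had B-only peaks in 20 of 43, or 46.5% (32.5 to 61.1%), beside 13.0% over all genes. Non-B-only peaks were found in 9, or 20.9% (11.4 to 35.2%), beside 7.13%, and shared peaks in 39, or 90.7% (78.4 to 96.3%), beside 39.4%. All these shares lay above their backgrounds. Tlr9, the receptor for unmethylated DNA, had a peak of 26.45 at its start, 84 bp from a shared peak. Ikbkb, the kinase that releases NF-kB, had one of 25.25 with an element of 3 mismatches, in a window that also holds Gm15346. Irf5 had one of 19.1 and Myd88, the adaptor of most Toll-like receptors, one of 18.27. Irak3 was named for a peak of 19.79 that lay in an intron of the neighbouring Tmbim4. Nfkb1 held 4 B-only peaks and no non-B-only peak.

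At T cell genes the non-B-only and the shared share stood above their backgrounds, and the interval of the B-only share held its background. B-only peaks were found in 7 of 36, or 19.4% (9.75 to 35.0%), an interval that holds the 13.0% over all genes. Non-B-only peaks were found in 24, or 66.7% (50.3 to 79.8%), beside 7.13% over all genes. Shared peaks were found in 21, or 58.3% (42.2 to 72.9%), beside 39.4% over all genes. The T cell genes with B-only peaks included Il2ra (19.79), Ccr7 (14.1), Cd247 (13.08), Prkcq (12.09), Satb1 (10.93) and Cd2 (8.94), and Ccr7, a homing receptor, is also expressed by B cells. Among NK and cytotoxic genes B-only peaks were found in 2 of 13, or 15.4% (4.33 to 42.2%), Cd244 and Klrb1c. Non-B-only peaks were also found in 2 of the 13. The central 31 bases of the named Cd244 peak occurred 25 times in the reference. Among myeloid genes B-only peaks were found in 2 of 27, or 7.41% (2.06 to 23.4%). Among erythroid and megakaryocyte genes they were found in 0 of 15 (0 to 20.4%). Each of these intervals holds 13.0%. The myeloid pair was Itgam and Itgax, which lie next to each other. Each was counted for 2 B-only peaks, but these were 3 different peaks. The peak at chr7:135270077-135270253 was counted for both genes. Over these 4 lists together, 11 of 91 genes had a B-only peak, or 12.1%, near the background of 13.0%. A non-B-only peak was found in 27, or 29.7%, beside 7.13%, and 24 of these were T cell genes.

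**Figure D5:**
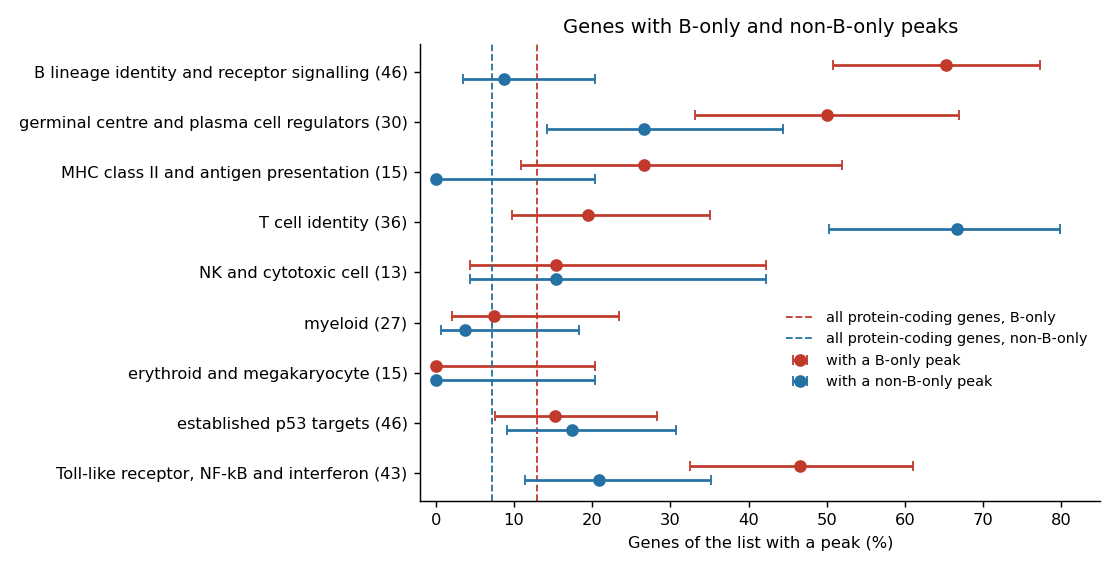
Share of genes of each list, in percent, with a B-only (red) or a non-B-only (blue) peak, with 95% Wilson intervals and the number of genes in brackets. Dashed lines are the shares over all protein-coding genes, 13.0% and 7.13%. Red reaches 65.2% in the B lineage list and blue 66.7% in the T cell list.

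Established p53 targets had B-only peaks in 7 of 46, or 15.2% (7.57 to 28.2%), near the background of 13.0%, whereas 42 of 46 had shared peaks. Non-B-only peaks were found in 8, or 17.4% (9.09 to 30.7%), beside 7.13%. Their B-only peaks had lower values than the highest shared peak of the same gene, by margins that differed between genes. At Mdm2, the ubiquitin ligase that degrades p53, the B-only peak had a value of 11.1 and lay 181 bp from a shared peak, and the highest shared peak had 223.88. At Mdm4, the related inhibitor, the values were 10.93 and 294.33, at Phlda3, an inhibitor of AKT, 8.33 and 255.55, and at Sesn1, a stress-induced sestrin, 19.27 and 47.5. At Rrm2b the values were closer, 11.61 and 15.36, and the nearest shared peak lay 27754 bp away. None of the 8 B-only peaks at these genes held an unsplit element.

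By number of B-only peaks, the protein-coding genes were led by very long models. Gm20388, a read-through model with a window of 4440 kb, held 28 and Fgfr2 11 in 3014 kb. Ptprj, the receptor phosphatase CD148, held 9 in 156 kb with values of 9.81 to 18.37. Bcl2, the survival factor, Camk2d, Ebf1 and Vav2 held 8 each. Aff1, Cyth1 and Lpp held 7 each. Camk2d, Ebf1, Vav2 and Aff1 held no non-B-only peak, and Bcl2 held 5. Having none was usual, since 17.1% of all genes with a B-only peak also had a non-B-only peak.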

How the data were processed

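p53 ChIP-seq was performed by the authors on pooled chromatin with the antibody NCL-p53-CM5p. Per the labels and the methods of the study, low-quality bases were masked, reads were aligned with BWA 0.6.2 to mm9, and peaks were called per library with MACS 1.4.1 at a stated limit of 1e-08. The deposited value of each peak was read as −log10 of the authors' p-value. In the irradiated B cell list, Poisson probabilities of whole read numbers at a mean of 2.03 matched 36.6% of values below 40. That mean was picked for the largest match, and the match from an arbitrary mean was not computed, so this is no test of the reading. The column also holds values under 8. Values are not normalised between libraries, and depth is unknown. The series has 6 libraries, and the input, which has no peak list, was not used here.

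A shared base (1 bp) counted as overlap of 2 peaks. Genes and starts came from GENCODE vM1 on NCBIM37 (95495 transcripts), and 9 gene lists with 266 genes and 16 motifs were used. Members, lists and motifs were chosen with earlier results of these data known. Named peaks were the 10 highest by value, the 5 highest at starts, the 5 with fewest mismatches, the highest peak of each of up to 12 B lineage genes and 6 genes of other lists, and the 10 genes with most B-only peaks. Some genes that this rule or the lists include are not reported here by name. Shares carry 95% Wilson and differences 95% Newcombe intervals. Peaks are not replicates, and no p-value was computed. The overlap rule, start calls, element search and intervals were tested on simulated data. Alternatives changed the overlap, minimum value, windows, mismatches and value weighting. Python 3.11.15, numpy 2.4.6, scipy 1.17.1, pysam 0.24.0 and matplotlib 3.10.9 were used.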

Additional observations from a re-analysis of the deposited data

How the results depend on the processing

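No paired analysis was possible because there was only 1 library for each group. Under 14 other settings, 50 values were recomputed, and 29 stayed within the interval of the reported value or, for counts, within 1.5 times of it. The difference in element share between B-only and shared peaks reversed to 1.71 points when shared peaks were weighted to B-only values, and the start site difference became -21.5 points. The weighted element difference was -3.81 points for peaks away from start sites and 3.31 points for peaks at them, a split chosen after seeing the data. With a minimum value of 20, there were 529 B-only peaks, 25.5% at start sites (-21.3 points from shared peaks) and 15.3% with an element. At that value 7 of 46 B lineage and 0 of 91 non-B lineage genes had a B-only peak. The share over all protein-coding genes was computed for the main setting only, so gene counts at other settings have no background beside them. With the other lists widened by 500 bp, 34.4% were at start sites (-16.8 points) and the element difference was -4.74 points. With 1 kb on either side of a start, the share was 23.6% and the difference -16.8 points. The element share was 5.60% with at most 2 mismatches, 20.1% with 4 (difference -4.19 points) and 8.75% within 100 bp of the midpoint (-3.89 points). Gene bodies widened by 20 kb on both sides gave 37 B lineage and 21 non-B lineage genes. The numbers of B-only peaks and of B lineage genes otherwise stayed within 1.5 times. Beyond the settings that change what is counted, the causes were not tested. With 1 library a group, a B-only peak may also be a peak that fell under the calling limit in non-B cells, and these cannot be told apart.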

Other observations

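The antigen receptor loci, chosen after their values were seen, held unlike numbers of B-only peaks, but they also differ in length. The immunoglobulin kappa locus (Igk, chr6:67485630-70696751) held 27 B-only peaks with values of up to 25.02, 14 shared and 0 non-B-only peaks. The lambda locus (Igl, chr16:19065110-19280937) held 6, 6 and 0. The heavy chain locus (Igh, chr12:114524600-117258672) held 9, 11 and 6. The T cell receptor loci held 1 B-only, 7 shared and 2 non-B-only peaks at Tcra and Tcrd, 0, 4 and 2 at Tcrb, and 1, 1 and 0 at Tcrg. Igk spans 3211 kb, Igl 216 kb and Igh 2734 kb. Tcra and Tcrd span 1835 kb, Tcrb 707 kb and Tcrg 214 kb. Counts were not scaled by length. Over all protein-coding gene windows there were 3.65 B-only and 1.83 non-B-only peaks per Mb. Variable gene segments of these loci resemble each other, and the placing of reads among them was not tested.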
